A study of Mus musculus with 39 samples.

Results

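The cell cycle and replication genes described here were 40 genes whose products copy DNA or carry cells through mitosis. They were chosen by name, with earlier results of these data known. Their transcripts were followed in lung and liver of 2 mutant mouse lines. The lines were 9V/null, with 1 point-mutated allele over a null allele, and 4L, homozygous for another point mutation. Each line was sampled at 4, 12, 18 and 28 wk with 2 arrays per age and tissue, and wild-type (WT) mice were sampled at 28 wk with 4 lung and 3 liver arrays, giving 39 arrays. The RNA of each array was pooled from 3 mice, so the spread between arrays is a spread between pools and p-values measure only that. The 9V/null and WT mice shared a mixed FVB, C57BL/6J and 129SvEvBrd background, whereas 4L mice were C57BL/6J and 129SvEvBrd without FVB, so that strain and mutation cannot be told apart in comparisons of 4L with the other lines. Only 28-wk mice were age-matched to WT. No WT mice younger than 28 wk were analysed here, so that an age course of the mutants could not be set against a WT course.

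Of the 40 genes, 39 had a probe set, a group of probes on the array that reports 1 transcript, and Ccnb1 was not analysed here. Each gene was read from its brightest probe set, among those whose name does not end in _x_at, the ending for probes that may cross-hybridise, out of 18193 genes so read. The sets read for Mcm2, Mcm3, Mcm7, Aurkb and Prc1 end in _s_at, the ending for probes that can match several transcripts. Signal is the array's intensity, and differences are given as log2 of signal after values under 16 were set to 16. A gene passed when its adjusted p was at most 0.01 and its difference at least 1.8-fold in limma's moderated test, with Benjamini-Hochberg adjustment over all 45037 probe sets. The percentage of all 18193 genes that passed the same rule is given beside the main counts over the 39 members. It is not given for counts by role, of related lists or of probe sets, or for most counts under other settings. Nor is it given for members named as meeting a rule in several comparisons at once.

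As background, a cell that commits to divide raises cyclins, loads the MCM helicase on origins of replication, copies its DNA, and then switches on a second wave of genes for chromosome condensation, spindle assembly and exit from mitosis. E2F factors act mainly on the first wave. The second wave is driven through promoter elements called the CHR and the CCAAT box, which the DREAM complex, B-Myb, FOXM1 and NF-Y use. Hepatocytes divide in young, growing rodents and become largely quiescent in the adult, and the lung of the young animal grows too.

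Promoter windows of 300 bases, 250 before and 50 after the annotated start (RefSeq, GRCm38.p6), matched 32 of the 40 members, and there was no window for Ccnd1, Ccne2, Gmnn, Mcm4, Ccna2, Aurkb, Kif20a and Tpx2. The 27025 genes had 32851 windows, and a gene counted as holding a motif where any of its windows did. A CCAAT box on either strand lay in the windows of 25 of 32 members (78.1%), against 41.1% of 27025 genes. A CHR, searched as TTTGAA or TTCGAA on both strands, lay in 17 of 32 (53.1%), against 21.7% of genes. An E2F core, searched on both strands under the spellings TTTGGCG or its first variant TTTGCCG or its further variant TTTCGCG or its last variant TTTCCCG, lay in 11 of 32 (34.4%), against 7.65%. A CCAAT box and a CHR can share an end base, forward and reverse E2F cores can overlap, and TTCGAA reads the same on both strands. The CHR was held by 15 of 20 members of G2 and mitosis (75.0%) and by 2 of 12 members of G1 and S phase (16.7%). The E2F core was held by 5 of 20 (25%) and 6 of 12 (50%). These matches describe letters in a window and say nothing of factor binding.

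The windows of 6 members are printed 5′ to 3′ on the gene's strand, because these genes carry the liver results below, 4 of them from mitosis and 2 from the replicative helicase. Capitals mark the CCAAT box (ATTGG where it lies on the other strand) and the CHR, and in Mcm5 and Mcm6 the E2F core too, where forward and reverse cores overlap in 1 longer run. Bub1b lies at chr2:118597961-118598260 on the plus strand, Ccnb2 at chr9:70421505-70421804 on the minus strand and Cdc20 at chr4:118437294-118437593 on the minus strand. Plk1 lies at chr7:122159185-122159484 on the plus strand, Mcm5 at chr8:75109259-75109558 on the plus strand and Mcm6 at chr1:128359656-128359955 on the minus strand.
Bub1b: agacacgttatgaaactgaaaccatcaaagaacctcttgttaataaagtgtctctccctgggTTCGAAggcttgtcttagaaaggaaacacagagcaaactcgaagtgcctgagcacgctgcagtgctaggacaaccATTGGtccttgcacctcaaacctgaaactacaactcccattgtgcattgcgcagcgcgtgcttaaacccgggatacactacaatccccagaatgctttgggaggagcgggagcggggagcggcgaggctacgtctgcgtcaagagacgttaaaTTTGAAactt
Ccnb2: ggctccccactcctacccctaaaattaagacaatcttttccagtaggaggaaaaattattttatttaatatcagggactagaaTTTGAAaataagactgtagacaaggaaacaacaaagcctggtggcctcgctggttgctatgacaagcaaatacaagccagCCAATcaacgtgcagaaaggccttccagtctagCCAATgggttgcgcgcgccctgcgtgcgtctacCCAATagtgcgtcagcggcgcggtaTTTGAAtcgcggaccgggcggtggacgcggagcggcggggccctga
Cdc20: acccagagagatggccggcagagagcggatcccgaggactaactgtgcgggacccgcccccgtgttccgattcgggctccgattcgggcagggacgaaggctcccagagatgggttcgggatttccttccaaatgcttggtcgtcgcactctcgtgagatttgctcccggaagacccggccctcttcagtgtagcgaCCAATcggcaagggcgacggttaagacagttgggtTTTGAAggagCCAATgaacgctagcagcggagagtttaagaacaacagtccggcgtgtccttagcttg
Plk1: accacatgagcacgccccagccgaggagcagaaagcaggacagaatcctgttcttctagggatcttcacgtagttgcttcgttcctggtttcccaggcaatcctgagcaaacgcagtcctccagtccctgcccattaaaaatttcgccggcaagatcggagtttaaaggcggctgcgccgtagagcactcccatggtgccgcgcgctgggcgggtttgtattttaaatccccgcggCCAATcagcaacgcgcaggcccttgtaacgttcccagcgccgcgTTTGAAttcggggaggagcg
Mcm5: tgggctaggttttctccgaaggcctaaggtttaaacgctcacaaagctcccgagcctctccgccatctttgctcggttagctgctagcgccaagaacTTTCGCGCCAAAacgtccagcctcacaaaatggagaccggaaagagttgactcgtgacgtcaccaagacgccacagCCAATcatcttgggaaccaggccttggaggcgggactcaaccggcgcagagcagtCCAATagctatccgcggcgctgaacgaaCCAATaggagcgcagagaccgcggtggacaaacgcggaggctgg
Mcm6: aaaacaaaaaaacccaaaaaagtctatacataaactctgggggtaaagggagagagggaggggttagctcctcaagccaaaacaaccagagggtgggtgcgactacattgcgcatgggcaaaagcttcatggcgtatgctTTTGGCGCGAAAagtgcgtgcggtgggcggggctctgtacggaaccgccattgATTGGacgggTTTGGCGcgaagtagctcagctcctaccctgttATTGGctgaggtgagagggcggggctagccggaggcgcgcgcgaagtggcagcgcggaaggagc
The 4 mitotic windows each hold a CCAAT box and a CHR, and both helicase windows hold CCAAT boxes and E2F cores but no CHR. Windows not printed do not all divide so. Those of the helicase genes Mcm2 and Mcm7 hold a CHR, and that of Mcm2 holds no E2F core. Those of Mcm7, Cdk1 and Ncapg hold both a CHR and an E2F core. Among members of G2 and mitosis, the windows of Birc5, Melk and Nusap1 hold an E2F core but no CHR and no CCAAT box. Those of Ccnb1 and Cenpe hold a CCAAT box but no CHR.

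**Figure D1:**
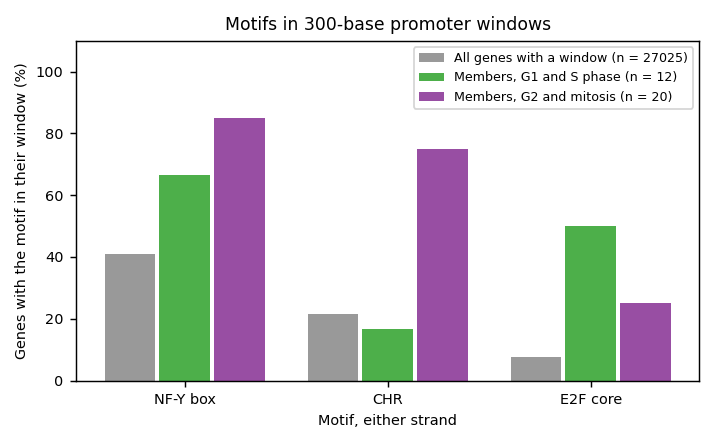
Percentage of genes with a CCAAT box (NF-Y), a CHR or an E2F core in any of their promoter windows, for members of G1 and S phase, members of G2 and mitosis, and all 27025 genes with a window. The CHR was held by 75.0% of members of G2 and mitosis and by 21.7% of all genes.

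The tissues matched their labels, and some libraries stood apart. The summed signal of 9 hepatocyte markers was 720394 to 1384084 in livers and at most 70228.1 in lungs, and that of alveolar epithelium markers was 295030 to 735797 in lungs and at most 25740.8 in livers. Between 4.39% and 12.4% of probe sets lay under 16. The WT arrays stood below all mutant arrays in both sums (295030 to 328525 in WT lung against at least 450423 in mutant lung, 720394 to 776254 in WT liver against at least 928770 in mutant liver), and their part in the comparisons with WT was not tested. In 4L liver at 4 wk, 35 of 39 members were higher on replicate 1 than on replicate 2, with a median ratio of 1.82. The mean log2 signal of the members was 9.89 and 9.08 on these arrays, while that of all genes was 9.17 and 9.19. In 9V/null liver at 4 wk the corresponding split was 19 to 20.

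Many members were lower in liver after 4 wk. In 9V/null liver, 21 of 39 members were lower at 12 to 28 wk than at 4 wk and none was higher, where 0.610% of all genes were lower, and 38 of 39 differences were below 0. The median difference was -2.13 on the log2 scale over the members and 0.00 over all genes. In 4L liver, 3 of 39 were lower, where 0.181% of all genes were, with a median of -1.67 against -0.05. The counts at an unadjusted p under 0.05 were 31 for the 9V/null livers and 30 for those of 4L, all of them lower, where 7.79% and 7.27% of all genes were lower by that rule. In bulk tissue, fewer cells of a type and less RNA per cell cannot be told apart.

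The 9V/null count depended on the estimate of the spread and on single arrays. The main fit took 1 spread per gene over both tissues. Between replicate arrays, the SD of the members' mean log2 signal was 0.359 in liver and 0.189 in lung. With each tissue fitted alone, which leaves 10 residual degrees of freedom, 1 of 39 members passed in 9V/null liver (Bub1, adjusted p = 0.00635) and 0 in 4L liver, while 29 and 26 were lower at an unadjusted p under 0.05 (5.38% and 4.61% of all genes). The 9V/null count was 7 without replicate 1 of 4 wk and 10 without replicate 2. The 4L count was 0 without replicate 1 of 4 wk, 10 or 1 without replicate 1 or 2 of 12 wk, 5 without replicate 1 of 18 wk, and 7 or 1 without replicate 1 or 2 of 28 wk.

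**Figure D2:**
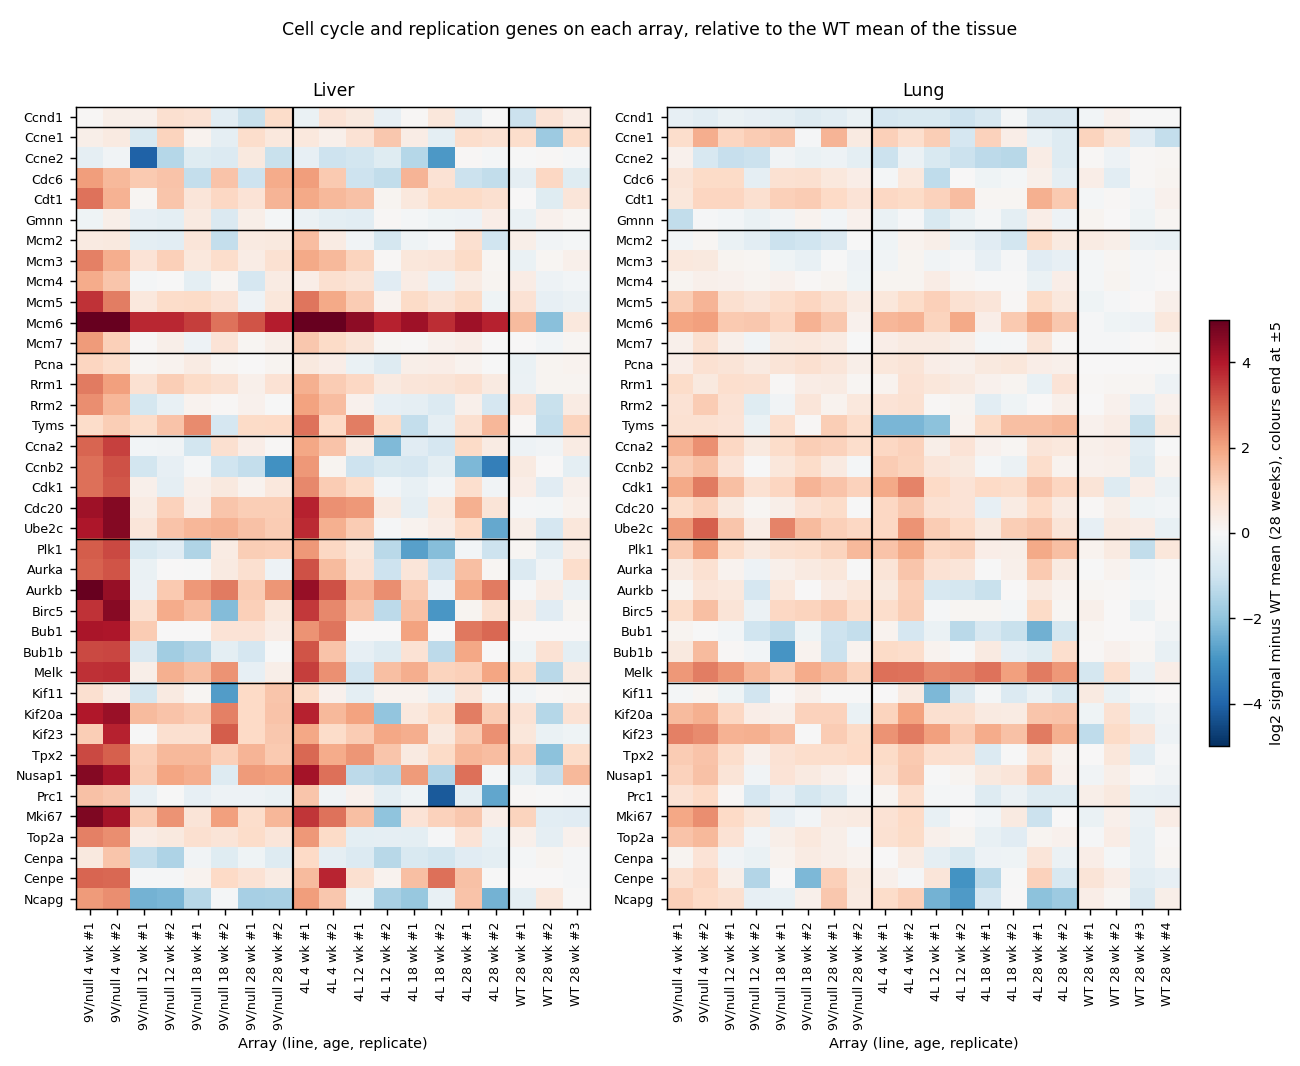
Log2 signal of the 39 measured members (rows, ordered by role and split by lines) on every array (columns, by line, age and replicate, liver left and lung right), minus the WT mean of that tissue, with colours ending at ±5. The 4-wk columns of 9V/null liver are high over most mitotic rows, replicate 2 of 4L liver at 4 wk is paler than replicate 1, and Mcm6 is high in every mutant liver column.

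The cyclins D1 and E, Cdc6, Cdt1 and Gmnn did not pass with age in liver. Ccnd1, the D-type cyclin that links growth signals to cell cycle entry, read 3810.8 and 4536.3 in 9V/null liver at 4 wk, 4391 and 6468.2 at 12 wk, 6094.5 and 2557.2 at 18 wk, and 1711.4 and 6898.4 at 28 wk. In 4L liver it read 2901.8 and 5927 at 4 wk and 2700.4 to 5405.8 later, with a median of 3720.9, and in WT liver 1763.1, 5901.2 and 4736.4. The ages overlapped in both lines, with differences of 0.00 ± 0.44 (SE, adjusted p = 0.9996) and -0.14 ± 0.44 (adjusted p = 0.941). The cyclins E, with Cdc6, Cdt1 and Gmnn of origin licensing and its control, 5 in all, had medians of -0.93 and -0.27 in 9V/null and 4L liver, and none passed. Of these 5, only Cdt1 had both 4-wk arrays above all later ones in liver, and it did so in both lines.

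The MCM genes encode the subunits of the replicative helicase, and 5 of 6 were lower in 9V/null liver after 4 wk. Mcm6 read 8788.3 and 3742.7 at 4 wk and 447.1 to 1036.9 later, with a median of 842.05. The 4L liver gave 4122.2 and 2382.6 at 4 wk and 894.5 to 1545.8 later, with a median of 1154.9. The 4-wk arrays did not overlap the later ones in either line. The 9V/null difference was -2.92 ± 0.59 (SE, adjusted p = 0.00607), and that of 4L, -1.44 ± 0.59, did not pass (adjusted p = 0.314). Mcm5 read 3779.8 and 1790.1 at 4 wk and 256.2 to 595.5 later in 9V/null liver, a difference of -2.52 ± 0.36 (adjusted p = 2.13e-04). Mcm3, Mcm4 and Mcm7 fell by 1.43, 1.78 and 1.47 on the log2 scale, and Mcm2, at -0.57, did not pass.

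Of the genes for the replication clamp and nucleotide supply, 2 of 4 were lower in 9V/null liver. Rrm1 and Rrm2, the subunits of ribonucleotide reductase, fell by 1.53 and 2.13 on the log2 scale. Pcna, the sliding clamp of DNA polymerase, read 18115.2 and 16174.6 at 4 wk, 9302 and 9760.8 at 12 wk, 11582.8 and 9340.7 at 18 wk, and 8770.2 and 9521.2 at 28 wk. Its ages did not overlap, but its fold of 1.77 was under 1.8 (difference -0.82 ± 0.17, adjusted p = 0.00632). In 4L liver Pcna read 12366.6 and 10854.2 at 4 wk and 5545.6 to 10917.6 later, with overlap, and in WT liver 6951.9, 9608.9 and 9895.7. Tyms, thymidylate synthase, differed by -0.09 with age in 9V/null and by -1.12 in 4L, with no pass.

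The mitotic cyclins, their kinase and the anaphase-promoting complex genes were lower in 9V/null liver for 4 of 5 members. Ccnb2, cyclin B2, read 1825.9 and 2460 at 4 wk, 142.6 and 201.9 at 12 wk, 257.9 and 134 at 18 wk, and 118.3 and 32.6 at 28 wk. Its 4L liver signal was 1207.7 and 291.7 at 4 wk, 129.2 and 157.1 at 12 wk, 151.2 and 188.1 at 18 wk, and 56.5 and 24.8 at 28 wk. All 4-wk arrays were above all later arrays of their line, the lower 4L array by the smaller margin. The difference was -4.08 ± 0.46 in 9V/null (16.9-fold lower, adjusted p = 1.17e-05) and -2.62 ± 0.46 in 4L (6.15-fold lower, adjusted p = 0.00572).

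Cdc20, an activator of the anaphase-promoting complex, read 6308.8 and 8033.7 in 9V/null liver at 4 wk and 434.7 to 871.2 later, with a median of 766.65. The 4L liver gave 4812.9 and 1636.9 at 4 wk and 249.8 to 1522 later, with a median of 511.4. Neither line overlapped, although the lower 4L array at 4 wk lay close to the highest later one. The 9V/null difference was -3.44 ± 0.43 (10.9-fold lower, adjusted p = 4.49e-05) and that of 4L was -2.20 ± 0.43 (adjusted p = 0.0147, no pass).

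Cdk1, the kinase that drives entry into mitosis, read 2440.9 and 3157.9 in 9V/null liver at 4 wk, 431.4 and 269.9 at 12 wk, 437.3 and 506.3 at 18 wk, and 407 and 524 at 28 wk. Its 4L liver signal was 1919.1 and 881.2 at 4 wk, 691.2 and 328.4 at 12 wk, 285.1 and 327.5 at 18 wk, and 651.5 and 326.1 at 28 wk. The 4-wk arrays stood above the later ones in both lines, and the later arrays lay around the WT values of 454.5, 243.7 and 438.6. The difference was -2.72 ± 0.39 in 9V/null (adjusted p = 1.87e-04) and -1.68 ± 0.39 in 4L (adjusted p = 0.0396, no pass). Ccna2, cyclin A2, fell by 3.17 in 9V/null liver, and Ube2c, the ubiquitin-conjugating enzyme of the complex, missed the threshold at -2.96 (adjusted p = 0.0118).

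**Figure D3:**
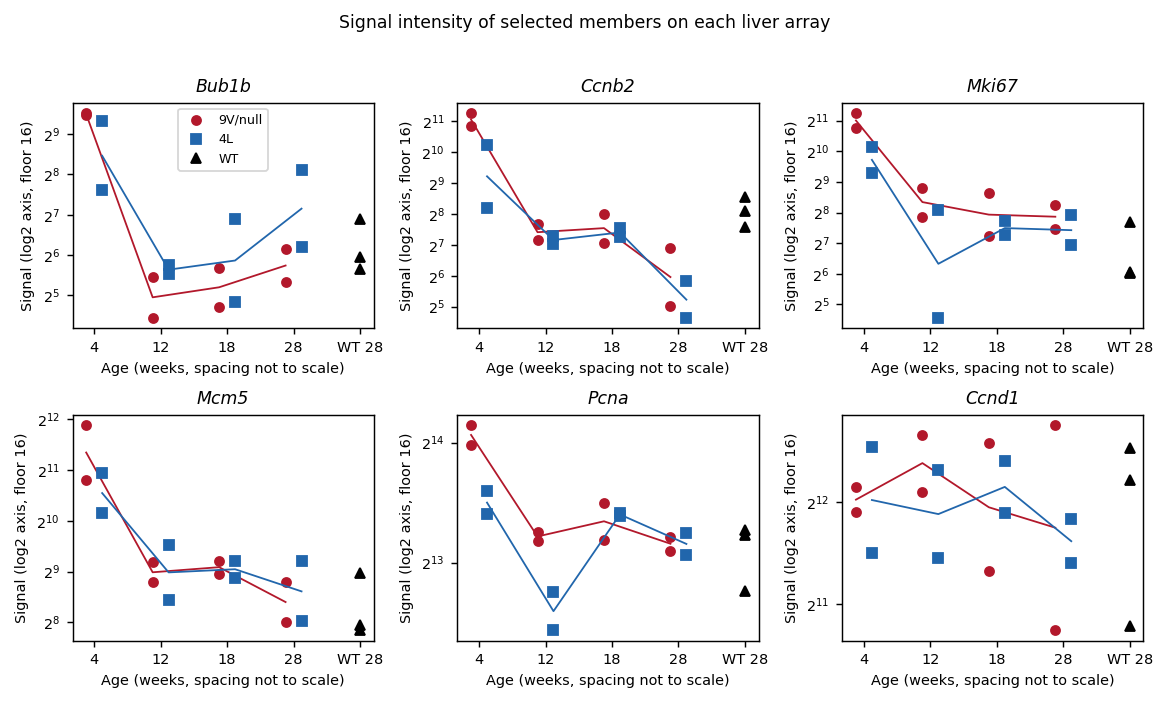
Signal (log2 axis, values under 16 set to 16) of Bub1b, Ccnb2, Mki67, Mcm5, Pcna and Ccnd1 on each liver array by age, with lines joining the means of log2 signal in each mutant line. The 4-wk points of Bub1b in 9V/null, at 704.4 and 736.9, lie above all later points, at 21.7 to 71.5, the 4L points at 4 wk are further apart, and Ccnd1 has no such order.

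Mitotic kinases, the spindle checkpoint and passenger proteins were lower in 9V/null liver for 6 of 7 members. Bub1b, the checkpoint protein BubR1, read 704.4 and 736.9 at 4 wk, 44.2 and 21.7 at 12 wk, 26.4 and 51.3 at 18 wk, and 40 and 71.5 at 28 wk. In 4L liver the signal was 637.4 and 195.3 at 4 wk, 53.8 and 46.1 at 12 wk, 118.4 and 28.7 at 18 wk, and 275.3 and 73.4 at 28 wk. The 9V/null ages did not overlap, and in 4L 1 array of 28 wk exceeded the lower array of 4 wk. The difference was -4.19 ± 0.68 in 9V/null (18.3-fold lower, adjusted p = 8.37e-04), the largest among the members, and -2.24 ± 0.68 in 4L (adjusted p = 0.140). Another Bub1b probe set differed by -4.24 and passed, while a further one differed by 1.15 without passing.

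Bub1, a kinase of the same checkpoint, read 269.1 and 260.4 in 9V/null liver at 4 wk and 4.3 to 38.6 later, with 2 of the 6 later arrays under 16. The signal in 4L liver was 76.3 and 101.4 at 4 wk, 7 and 12.1 at 12 wk, 64.4 and 14.1 at 18 wk, and 100.5 and 116 at 28 wk. The 28-wk arrays of 4L thus overlapped those of 4 wk, unlike those of 9V/null. The 9V/null difference was -3.55 ± 0.44 (adjusted p = 4.04e-05) and that of 4L was -1.21 ± 0.44 (adjusted p = 0.252).

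Plk1, a kinase of centrosome maturation and mitotic exit, read 1322.8 and 1587 in 9V/null liver at 4 wk, 95.7 and 108.7 at 12 wk, 57.6 and 215.9 at 18 wk, and 384.1 and 369.7 at 28 wk. In 4L liver it read 739.9 and 336.7 at 4 wk and 24.9 to 242.3 later, with a median of 71.75. The ages did not overlap in either line. The difference was -3.16 ± 0.50 in 9V/null (adjusted p = 6.24e-04) and -2.75 ± 0.50 in 4L (adjusted p = 0.00656). Aurka and Aurkb, the Aurora kinases, fell by 2.95 and 3.14 in 9V/null liver, and Melk, a mitotic kinase, fell by 2.73. Birc5, survivin of the passenger complex, differed by -3.46 but with an SE of 0.84 (adjusted p = 0.0241, no pass).

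None of the 6 spindle motor and cytokinesis genes passed in either liver. Their median difference was -1.68 in 9V/null and -1.42 in 4L, and the SE ran from 0.50 for Kif11, a motor that separates spindle poles, to 0.78 for Nusap1, a microtubule-bundling protein. Nusap1 differed by -2.91 in 9V/null (adjusted p = 0.0442) and -3.36 in 4L (adjusted p = 0.0413).

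Of the chromosome genes, 4 of 5 were lower in 9V/null liver. Mki67, the proliferation marker Ki-67 that coats mitotic chromosomes, read 2441.6 and 1728.6 at 4 wk, 233.8 and 449.4 at 12 wk, 149.2 and 399.2 at 18 wk, and 176.7 and 306.7 at 28 wk. In 4L liver it read 1136.6 and 625.8 at 4 wk, 273.6 and 23.5 at 12 wk, 153.7 and 210.6 at 18 wk, and 242.7 and 121.4 at 28 wk. Every 4-wk array was above every later one of its line. The difference was -2.96 ± 0.61 in 9V/null (adjusted p = 0.00731) and -2.64 ± 0.61 in 4L (adjusted p = 0.0394, no pass).

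Top2a, the topoisomerase that untangles sister chromatids, read 1143.9 and 982 in 9V/null liver at 4 wk, 257 and 280.2 at 12 wk, 343.6 and 310.1 at 18 wk, and 371.8 and 302.8 at 28 wk. In 4L liver it read 880.1 and 378.9 at 4 wk, 140.7 and 146.4 at 12 wk, 139.3 and 189.4 at 18 wk, and 316.4 and 152.7 at 28 wk. It passed in both lines, without overlap of the ages, at -1.78 ± 0.30 in 9V/null (adjusted p = 0.00118) and -1.74 ± 0.30 in 4L (adjusted p = 0.00406). Under alternative processing the Top2a difference ran from -1.78 to -0.81 in 9V/null and from -1.90 to -1.30 in 4L. Its call was lost under 3 of 10 alternatives in 9V/null and 4 of 10 in 4L. Ncapg, a condensin subunit, read 359.4 and 409 at 4 wk and 5.6 to 76.9 later in 9V/null liver, with 1 of the 6 later arrays under 16, a difference of -3.79 ± 0.64 (adjusted p = 0.00121). The 4L difference was -2.57 (adjusted p = 0.0588, no pass). Cenpa, the centromeric histone, fell by 1.67, and Cenpe, a kinetochore motor, did not pass at -2.53 (adjusted p = 0.0775).

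The liver difference was present at 12 wk, the earliest later age. The members' median difference from 4 wk was -2.43, -1.88 and -1.90 at 12, 18 and 28 wk in 9V/null liver, and -1.56, -1.53 and -1.29 in 4L liver. Against 4 wk in 9V/null liver, 14 members were lower at 12 wk (0.291% of genes), 8 at 18 wk (0.390%) and 16 at 28 wk (0.830%). Mcm5, Ccna2, Ccnb2, Cdk1, Cdc20, Bub1 and Bub1b passed at every age, and the share of all genes that did so was not counted. These counts and that list moved with single arrays and with the fit. Leaving out 1 array gave 4 to 15 at 12 wk, 3 to 12 at 18 wk and 2 to 17 at 28 wk. Without replicate 1 or 2 of 4 wk the counts were 7 and 4 at 12 wk, 5 and 4 at 18 wk, and 5 and 7 at 28 wk. Without replicate 1 or 2 of the later age itself they were 4 and 4 at 12 wk, 3 and 5 at 18 wk, and 2 and 10 at 28 wk. A fit per tissue gave 0 at each age, and array weights gave 0, 4 and 4. Quantile normalization and median centring each gave 8 at 12 wk and 5 at 18 wk, a floor of 64 gave 18 at 18 wk, and the replicate block gave 9 at 28 wk. In 4L liver 0 passed at 12 wk (0.0660%), 3 at 18 wk (Cdc20, Plk1 and Aurkb; 0.374%) and 1 at 28 wk (Ccnb2; 0.236%), where 28, 29 and 21 were lower at an unadjusted p under 0.05 (4.85%, 10.8% and 8.72% of genes). Leaving out 1 array gave 0 to 3, 0 to 5 and 0 to 3 in 4L. Between 12 and 28 wk none differed in 9V/null liver (0.665%) or 4L liver (0.0770%), with 6 members at an unadjusted p under 0.05 in each (21.8% and 12.1% of genes). These comparisons share the 4-wk or the 12-wk arrays of their line.

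**Figure D4:**
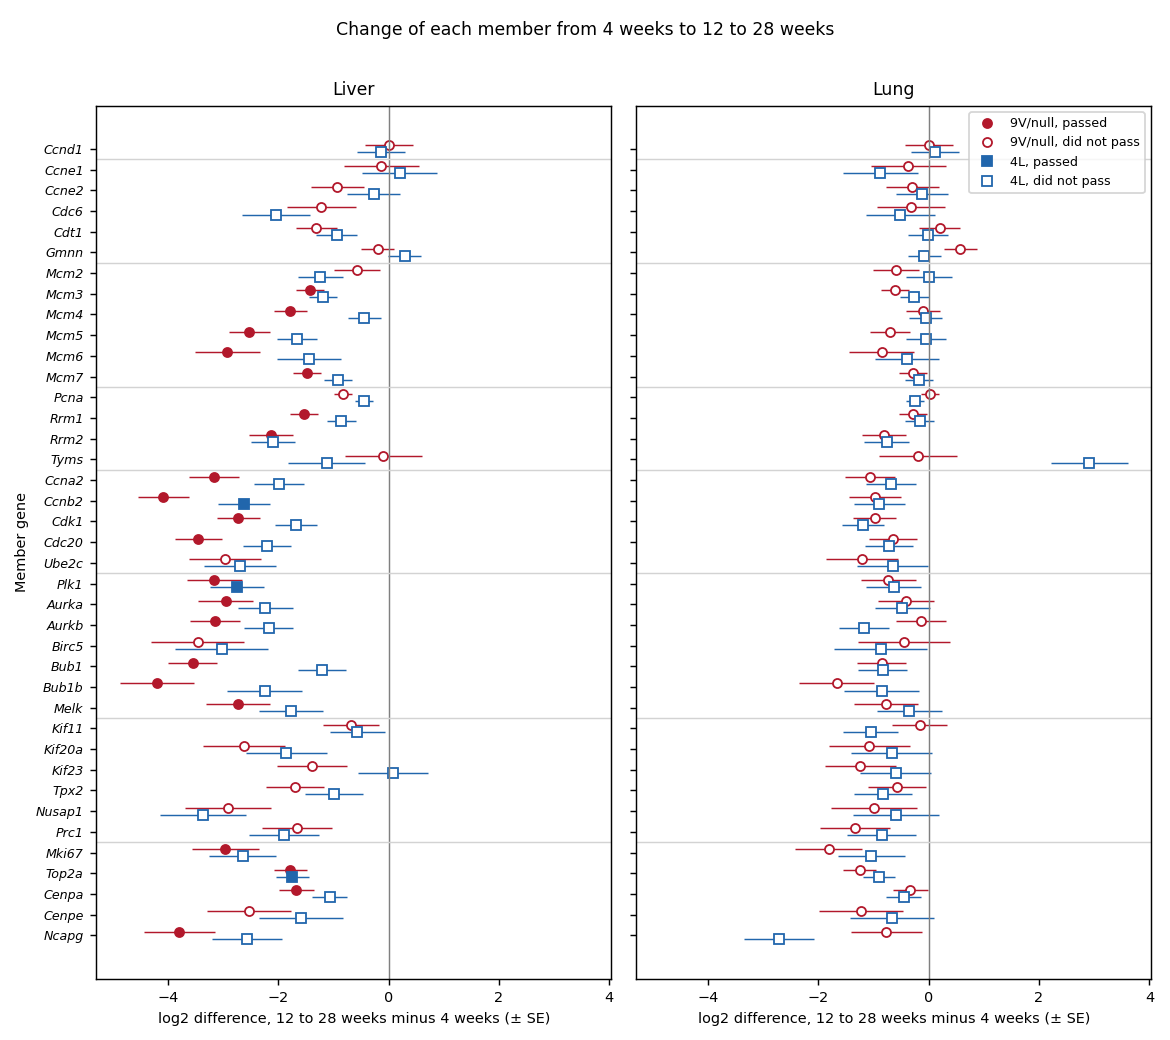
Log2 difference of 12 to 28 wk minus 4 wk for each measured member in liver (left) and lung (right), with its SE as a bar, circles for 9V/null and squares for 4L, filled where the member passed. In 9V/null liver 21 circles are filled, in 4L liver 3 squares, and in lung none.

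In lung no member passed with age. The counts were 0 of 39 in 9V/null (0.192% of genes lower) and 0 of 39 in 4L (0.00550%), with 8 and 5 members lower at an unadjusted p under 0.05 (7.28% and 3.09% of genes) and 1 higher in 4L (3.0%). Of the 39 differences, 35 and 36 were below 0, with medians of -0.64 and -0.63 against 0.07 and 0.00 over all genes. With each tissue fitted alone, Mki67 passed in 9V/null lung (adjusted p = 0.00771), and 17 and 13 members were lower at an unadjusted p under 0.05, where 10.3% and 4.86% of genes were.

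Mki67 read 2409 and 3127.8 in 9V/null lung at 4 wk, 1248.2 and 929.8 at 12 wk, 478.7 and 573.6 at 18 wk, and 832.7 and 856.3 at 28 wk. In 4L lung it read 1036.2 and 1263.4 at 4 wk and 299.1 to 851.5 later, with a median of 605.9, and in WT lung 500.1, 754.8, 522 and 806.6. The 4-wk arrays of both lines were above all later ones. The differences were -1.81 ± 0.61 (adjusted p = 0.130) and -1.04 ± 0.61 (adjusted p = 0.799).

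Top2a read 1528.2 and 1751.1 in 9V/null lung at 4 wk and 514.2 to 957.1 later, with a median of 699.55. In 4L lung it read 988.1 and 1118.1 at 4 wk and 388.8 to 680.9 later, with a median of 633. The ages did not overlap in either line, and the differences of -1.25 ± 0.30 (adjusted p = 0.0301) and -0.90 ± 0.30 (adjusted p = 0.416) did not pass. Under alternative processing they ran from -1.25 to -0.17 in 9V/null and from -1.01 to -0.70 in 4L. Cdk1 read 853.2 and 1411.9 at 4 wk and 394.8 to 751.5 later in 9V/null lung, and 858.9 and 1308 at 4 wk and 368.7 to 629.8 later in 4L lung, again without overlap. Pcna in lung read 14579.1 and 19521.4 at 4 wk and 14308.2 to 19912.8 later in 9V/null, and 17184.5 and 18173.4 at 4 wk and 13626.2 to 17052.8 later in 4L, so that only 4L was free of overlap. Ccnd1 in 9V/null lung read 10661.4 and 9801.4 at 4 wk and 9024.4 to 11309 later, and in 4L lung 7950.6 and 8248.7 at 4 wk and 6986.3 to 13350.3 later, both with overlap.

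Ncapg read 216.4 and 261.1 in 4L lung at 4 wk, 22.2 and 11.8 at 12 wk, 63 and 114.7 at 18 wk, and 27 and 32.5 at 28 wk, with 1 later array under 16. The ages did not overlap, and the difference of -2.71 ± 0.64 did not pass (adjusted p = 0.136).

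Tyms went against the other members in 4L lung, where it read 14.7 and 15.5 at 4 wk, 19 and 88.7 at 12 wk, 150.6 and 222.8 at 18 wk, and 221.7 and 240.1 at 28 wk. Both 4-wk arrays lay under 16 and below all later arrays, and no other member had that order in any line and tissue. The difference of at least 2.91 did not pass (adjusted p = 0.151), and 9V/null lung read 130.9 and 132.7 at 4 wk.

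Both 4-wk arrays were above all 6 later arrays for 30 of 39 members in 9V/null liver (5.55% of all genes), 21 in 4L liver (6.00%), 17 for lungs of 9V/null (7.59%) and 15 for those of 4L (4.41%). Rrm2, Ccna2, Ccnb2, Cdk1, Cdc20, Mki67 and Top2a had this order in all 4. The share of all genes with this order in all 4 was not counted. The 9V/null lung count was 5 with arrays centred on their medians, 9 with quantile normalization, and 29 without replicate 1 of 4 wk. The 4L lung count was 24 without replicate 1 of 4 wk.

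**Figure D5:**
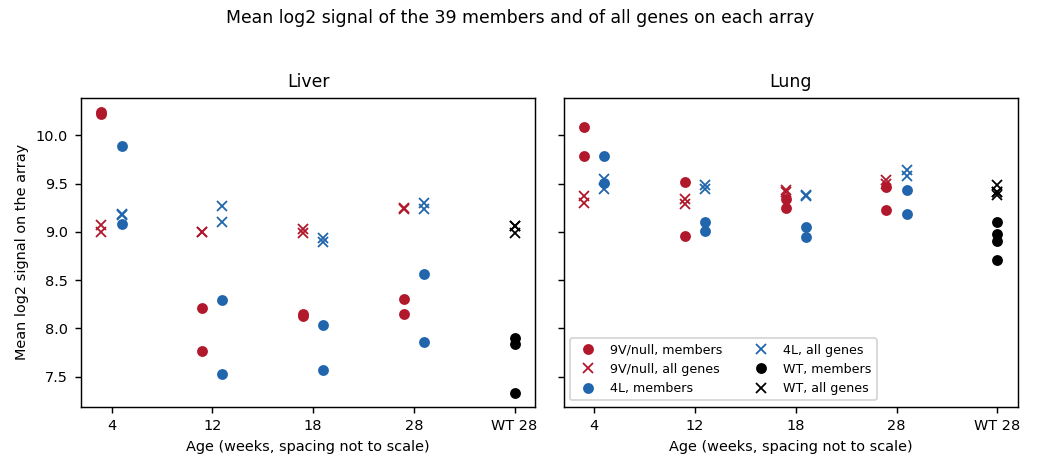
Mean log2 signal per array of the 39 measured members (dots) and of all genes (crosses) by age, in liver and lung, for 9V/null, 4L and WT mice, with ages not spaced to scale. In 9V/null liver both member means at 4 wk are at 10.2 and later ones at 7.77 to 8.31, and the WT liver arrays are at 7.34 to 7.90.

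Against WT of 28 wk, 4-wk livers were higher for 26 of 39 members in 9V/null (4.52% of genes) and 15 in 4L (4.08%), with medians of 2.55 and 1.75. Those arrays are also the base of the age comparison, so the counts are not independent of it, and age and genotype cannot be told apart in them. Cdc20, at 323.3, 311.8 and 378.3 in WT liver, was below all 4-wk arrays and was 21.2-fold higher in 9V/null at 4 wk (4.40 ± 0.48, adjusted p = 6.12e-06) and 8.34-fold higher in 4L (3.06 ± 0.48, adjusted p = 4.08e-04). Mki67, at 204.8, 66.3 and 64.7 in WT liver, was 21.5-fold and 8.81-fold higher. In lung, 2 of 39 were higher at 4 wk in 9V/null (1.14%; Cdk1 and Top2a) and 2 in 4L (2.78%; Cdk1 and Melk), with medians of 1.01 and 0.86.

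Cdk1 in WT lung read 361, 146.8, 289.4 and 188, below both lines at 4 wk, and the differences were 2.24 ± 0.41 in 9V/null (adjusted p = 0.00147) and 2.19 ± 0.41 in 4L (adjusted p = 0.00149). Melk read 43.7, 146.8, 66.1 and 101.3 in WT lung, 545.8 and 538.7 in 4L at 4 wk, and 332.8 to 534 later in 4L. All 4L lung arrays were above all WT arrays for Melk. In 9V/null lung Melk was also above the WT mean, by 2.36, 1.91, 1.52 and 1.34 at 4, 12, 18 and 28 wk, without passing. The lines were not shown to differ in lung at 4 wk (9V/null minus 4L -0.38, adjusted p = 0.885). Fitted per tissue, the counts at 4 wk against WT were 8 and 0 in 9V/null and 4L liver and 8 and 4 in lung. Without replicate 1 of 4 wk, the count was 17 for 9V/null and 2 for 4L livers, and the 4L count was 9 without replicate 2 of 4 wk and 7 without replicate 2 of WT.

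At 28 wk, where ages matched, few members differed from WT. The counts were 1 in 9V/null liver (0.473% of genes), 3 in 4L liver (0.907%), 0 for lungs of 9V/null (2.09%) and 0 for those of 4L (7.01%), and 11, 12, 7 and 9 members had an unadjusted p under 0.05, where 16.8%, 21.6%, 23.1% and 31.0% of genes had. Mcm6 was higher in both livers and read 614.7 and 1036.9 in 9V/null, 1310.9 and 998.9 in 4L, and 203.5, 11.4 and 100.3 in WT, the middle value under 16. No mutant array overlapped WT, and the differences were 3.54 ± 0.65 (adjusted p = 0.00671) and 4.05 ± 0.65 (adjusted p = 0.00132). Its other probe sets differed by 1.39 and -1.05 in 9V/null and by 0.79 and 1.30 in 4L, none of these passed, and both have names that end in _x_at. Without WT replicate 2, the array under 16, the differences were 2.48 and 3.0, and 9V/null no longer passed (adjusted p = 0.0132). The 9V/null call was also lost without either 28-wk array or WT replicate 3 and under 7 of 10 alternatives, and that of 4L without either 28-wk array, in a fit per tissue (adjusted p = 0.0573) and with the median of its probe sets (1.03, adjusted p = 0.173).

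Bub1 was higher in 4L liver at 28 wk, at 100.5 and 116 against 5.9, 9.9 and 7.8 in WT, all under 16, hence at least 6.75-fold (adjusted p = 0.00311). A further Bub1 probe set differed by 1.01 without passing. The call was lost without either 4L array or any 1 of the 3 WT arrays. It was also lost under 7 of 9 alternatives (adjusted p up to 0.217). Ccnb2 was lower in 4L liver at 28 wk, at 56.5 and 24.8 against 369.8, 271.3 and 190.2 in WT, without overlap (-2.84 ± 0.52, 7.14-fold lower, adjusted p = 0.00357). That call was lost without replicate 2 of 4L (-2.24, adjusted p = 0.104), without replicate 1 or 2 of WT and in a fit per tissue (adjusted p = 0.092). Mki67 at 28 wk differed from WT by 1.28 in 9V/null liver (adjusted p = 0.372) and 0.84 in 4L liver (adjusted p = 0.539).

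Mutants of 12 and 18 wk were set against the same WT arrays of 28 wk. In 9V/null liver 2 members differed at 12 wk (8.10%; Mcm6 higher and Ccne2 lower) and 2 at 18 wk (1.79%; Mcm6 and Aurkb higher). In 4L liver 1 differed at 12 wk (2.46%; Mcm6 higher) and 2 at 18 wk (5.34%; Mcm6 higher and Plk1 lower). In 9V/null lung 0 differed at 12 wk (2.70%; 8 at an unadjusted p under 0.05, against 22.0% of genes) and 0 at 18 wk (11.2%; 9, against 33.9%), and in 4L lung 2 at 12 wk (11.1%; Melk higher and Ncapg lower) and 0 at 18 wk (2.34%; 5, against 21.7%). A fit per tissue gave 0 in all 4 liver comparisons. Leaving out 1 array gave 1 to 3 and 0 to 2 in 9V/null liver at 12 and 18 wk, where 21 of 39 arrays moved the latter. It gave 0 to 2 and 1 to 3 for 4L livers. The 2 of 4L lung at 12 wk were 0 without either array of that age or without replicate 1 or 4 of WT, and 0 to 5 under the alternatives. The passing share of members lay below that of all genes in several of these comparisons.

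No member passed between the 2 lines. At 4 wk 0 of 39 differed in liver (0.390% of genes) and in lung (0.143%), although 10 members in liver had an unadjusted p under 0.05, all higher in 9V/null (4.91% of genes), with a median over the 39 of 0.80, and 1 had in lung (12.7% of genes in either direction). Over 12 to 28 wk 0 differed in lung (0.824%; 1 unadjusted, against 12.1% of genes) and liver (0.660%; 8, against 13.2%), while 1 passed in lung with quantile normalization and in a fit per tissue. The change with age differed for 0 members in lung (0.0715%; 2 unadjusted, against 11.0%) and in liver (0.170%; 3, against 11.4%, Bub1 lowest at -2.34, adjusted p = 0.0952). The passing counts of 21 and 3 in the livers of the lines are therefore not shown to differ gene by gene.

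The change with age was set between tissues in the same way. It differed between liver and lung for 0 of 39 members in 9V/null (0.0879%) and 0 in 4L (0%), with 22 and 12 more negative in liver at an unadjusted p under 0.05 (7.05% and 4.52% of genes) and medians of -1.34 and -1.0. In WT mice of 28 wk, 15 of 39 were lower in liver than in lung (27.3% of genes), among them Mcm3, Mcm4, Aurkb, Mki67 and Top2a. Bub1 differed most, at -4.68 with liver under 16.

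Ccne1, Gmnn, Tyms, Kif11 and Prc1 passed in none of these comparisons. Ccnd1, Cdc6, Mcm2, Kif23 and Cenpe passed in WT liver against lung alone. Over all 87 probe sets of the 39 members, 31 were lower with age in 9V/null liver, from 23 members, 5 in 4L liver, and none was higher. The direction was not uniform across probe sets. Of the 27 members with several sets, 17 had every difference with age below 0 for livers of 9V/null mice, and 19 for those of 4L mice. For lungs these counts were 15 (9V/null) and 18 (4L). The rest of the 27 had a set that was not below 0.

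Related genes outside the 40 were read from lists of the same pathway. Of 50 other genes of G2 and mitosis, 18 were lower with age in 9V/null liver (median -1.90), among them Nuf2 (-3.97), a kinetochore protein, Nek2 (-3.86), a centrosomal kinase, Kif20b (-3.57), a kinesin, and Ttk (-3.52), a checkpoint kinase. In 4L liver 1 of the 50 was lower (Anln, -1.78). Of 35 other genes of S phase, 5 were lower in 9V/null liver (Gins2, Prim1, Rfc4, Fen1 and Chaf1b) and 1 in 4L liver (Fen1, -1.50). None of 9 further G1 cyclins and CDKs passed in either liver, and 1 of 19 cell cycle inhibitors and exit genes passed in each, Cdkn1c in 9V/null (-1.93) and Cdkn1a in 4L (-3.48), both lower. No gene of these 4 lists passed with age in lung.

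Over the 16 mutant arrays of a tissue, which differ in age and line, the genes outside the list that followed the members' mean most closely were Cdca3 (Pearson r = 0.947), Prim1 (0.943), Pbk (0.930), D17H6S56E-5 (0.926) and Chaf1b (0.919) in liver. They were Aspm (0.913), Pclaf (0.883), Mest (0.844), Cep55 (0.817) and Cenpf (0.815) in lung. Among the members in liver, Cdk1 (0.952), Aurka (0.950) and Rrm2 (0.947) followed the mean of the others most closely, and Gmnn (-0.03), Ccnd1 (-0.02) and Ccne1 (0.05) least. These are descriptions of arrays that mostly separate by age.

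Markers of other cells moved with age in the same livers. Of 8 fibroblast and stellate cell markers, Col3a1 fell in 9V/null (-2.29) and Col1a1, Col1a2 and Col3a1 in 4L (-3.01, -2.10 and -2.70), and the list's summed signal was 56489.5 to 60909.4 at 4 wk and 30871.7 to 39850.9 later in 9V/null, and 41402.8 to 49451 and 22216.6 to 30378.1 in 4L. The sum of 4 cholangiocyte markers was 1590.6 to 1698.3 at 4 wk and 847.6 to 1309.6 later in 9V/null, and 2085.7 to 2191.8 and 843.7 to 1539.9 in 4L, with 0 of 4 passing. That of 5 immature hepatocyte markers was 1973.9 to 2448.8 and 966.9 to 1473.6 in 9V/null, with Cd24a lower (-1.51), and 2434 to 3058.9 and 1391 to 2099.4 in 4L with none. The part of these cells in the members' difference was not tested. Of 8 erythroid markers, whose precursors divide in the perinatal liver, 0 passed in 9V/null liver, with a median of 0.64 and sums of 13194 to 26780.6 at 4 wk and 8263 to 17538.9 later, which overlap. Of 10 macrophage markers, 1 was higher with age in 9V/null liver (Lyz2, 2.64) and 0 in 4L liver. The macrophage sum was 49615.1 to 55871.5 at 4 wk and 65047.3 to 84860.9 later in 9V/null liver.

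Further lists had sums that separated the ages. In 9V/null liver the hepatocyte sum was 1303048 to 1384084 at 4 wk and 928770 to 1214232 later (0 of 9 passed), and that of B and plasma cells was 1409.5 to 1897.7 and 2462.5 to 6305.7 (0 of 7). In 4L liver the endothelial sum was 13021.8 to 15482.4 and 8204.9 to 12176.9 (0 of 8), and that of neutrophils 2824.7 to 3311.3 and 2128.5 to 2567.9 (0 of 7). In lung the fibroblast sum was 214190 to 292313 at 4 wk and 84827.8 to 142425 later in 9V/null, where Col1a1 (-3.21) and Col3a1 (-1.27) were lower, and 196828 to 204373 and 63069.6 to 145941 in 4L, with 0 of 8 passing. The B and plasma cell sum in lung was 7186.9 to 8136.1 and 8431.2 to 70338 in 9V/null, and 9031.8 to 10527.6 and 15424.9 to 69069.2 in 4L. Their part in the members' values was not tested.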

How the data were processed

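Total RNA of lung and liver was hybridised to 1-colour Affymetrix mouse arrays, and per the labels GCOS 1.1 made the values. The authors deposited 1 linear signal intensity per probe set and array, with no detection calls. The trimmed mean, with 2% of probe sets dropped at each end, was 1500.01 on every array, so only relative amounts of RNA can be compared. Of 45101 probe sets, 64 controls were left out. In the probe annotation 34945 named 1 gene, 932 several and 9160 none, and genes were taken from the first kind. All sample columns were used (0 unused).

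Signals under 16 were set to 16 and log2 values were fitted with limma 3.58.1 in R 4.3.3, with 1 mean for each of 18 groups over 39 arrays (21 residual and 2.21 prior degrees of freedom, adjusted p at most 0.01, fold at least 1.8). The methods' random term for the subject and an RMA summary were not run, since no label ties arrays to subjects and no probe-level values were used here. The fit was also run on simulated normal values with 1 spread per gene shared by both tissues. That run could not test whether the spread differs between tissues. Arrays have no read depth, so their number limits the precision, with 2 in each mutant group. Alternatives were the floor, normalization, dim probe sets, probe set choice, weights, moderation, a fit per tissue, a replicate block and leaving out each array.

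Full values were given for Mki67, Top2a, Cdk1, Pcna and Ccnd1, for up to 5 members with the largest differences that passed in each line and tissue with age, against WT at 28 wk, and between lines or tissues. Other members were given by counts and ranges. Up to 4 genes that passed were named from each related list, and the genes most correlated with the members from all others. Mcm5, Tyms, Melk, and the further lung and WT values were added after their values were seen. The members, gene lists and tests were chosen with earlier results of these data known. Promoter motifs were exact letters in RefSeq windows. The gene mutated in the lines is not reported here.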

Additional observations from a re-analysis of the deposited data

Results flagged for a closer look

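In WT lung, the group of 4 arrays, 1 array stood far from the other 3 for 4 of 39 members. The gap to the nearest array, divided by the group's whole range of log2 signal, was 0.851 for Ccne2, 0.895 for Rrm1 and 0.905 for Ccnb2, where the lowest array was the distant one, and 0.841 for Kif20a, where it was the highest. Each exceeded Dixon's critical value for 4 arrays, and chance passes it in about 1 in 20 groups. None of these members passed against WT in lung. Of them, only Rrm1 passed between WT liver and WT lung (-1.28, adjusted p = 1.25e-04), a comparison that uses the same 4 arrays. Other groups held 2 or 3 arrays and were not tested in this way.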

How the results depend on the processing

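Without 1 array at a time, the count of members lower with age ranged from 7 to 22 for 9V/null and from 0 to 10 for 4L livers, and was 0 in both lungs throughout. Without an array the calls with age of Bub1, Ccnb2, Cdc20 and Cdk1 were kept in 9V/null liver. Those of Bub1b, Ncapg and Top2a were lost without either array of 4 wk, that of Plk1 without replicate 2 of 4 wk, and those of Mcm6 and Mki67 without either array of 4 wk and without several later ones. In 4L liver the calls of Ccnb2, Plk1 and Top2a were lost without replicate 1 of 4 wk. Those of Ccnb2 and Plk1 were also lost without replicate 2 of 12 wk, replicate 1 of 18 wk or replicate 2 of 28 wk. The Plk1 call was the more fragile, being lost without any 1 of 9 of the 39 arrays. Against WT, the count higher at 4 wk ranged from 17 to 27 in 9V/null liver, 2 to 17 in 4L liver, 0 to 5 in 9V/null lung and 0 to 2 in 4L lung. At 28 wk it ranged from 0 to 1 in 9V/null liver, 0 to 4 in 4L liver and 0 to 2 in 4L lung. Between lines over 12 to 28 wk it ranged from 0 to 1 in lung and 0 to 1 in liver, and in WT liver below lung from 11 to 15. The count without overlap between 4 wk and later ranged from 17 to 29 in 9V/null lung, 30 to 31 in 9V/null liver, 15 to 24 in 4L lung and 21 to 31 in 4L liver.

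In counts lower with age, a fit per tissue gave 1 for lung and 1 for liver of 9V/null mice but 0 for 4L liver, and array weights gave 10 for 9V/null and 0 for 4L liver. The count of 3 in 4L liver was 5 with a floor of 64, with trended moderation and with probe sets of mean log2 of at least 7, 6 with the median probe set and 1 with median centring. In counts higher at 4 wk than WT, a fit per tissue gave 8, 4, 8 and 0 in 9V/null lung, 4L lung, 9V/null liver and 4L liver, median centring gave 8 in 4L liver, a floor of 64 gave 5 and 4 in 9V/null and 4L lung, a floor of 1 gave 1 in 4L lung, and array weights gave 0 and 5 in these lungs.

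In counts different from WT at 28 wk, the 1 of 9V/null liver was 0 with a floor of 1, quantile normalization, median centring, a fit per tissue, the median probe set and array weights. The 3 of 4L liver were 0 in a fit per tissue and 1 with the median probe set. The 0 of 4L lung was 3 with a floor of 64 and in a fit per tissue, 2 with probe sets of mean log2 of at least 7, and 1 with quantile normalization and trended moderation, and that of 9V/null lung was 1 with array weights. Lung lines over 12 to 28 wk differed for 1 member with quantile normalization and in a fit per tissue. The change with age differed between tissues for 2 members in 9V/null with a floor of 64. WT liver was below lung for 8 members with quantile normalization and 7 with median centring, and 9V/null lung was without overlap for 9 and 5. The cause was not tested. No difference that passed changed sign. Differences near 0 that did not pass did so: between 12 to 28 wk and 4 wk the alternatives gave -0.10 to 0.10 for Pcna and -0.23 to 0.08 for Ccnd1 in 9V/null lung, -0.17 to 0.16 for Ccnd1 in 4L lung and -0.02 to 0.01 in 9V/null liver, and leaving out 1 array gave -0.65 to 0.38 for Ccnd1 in 4L liver.

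With the replicate number as a block, 19 and 2 members were lower with age in 9V/null and 4L liver, 1 and 1 were higher at 4 wk than WT in 9V/null and 4L lung, and 0 differed from WT at 28 wk in 9V/null liver. Same-numbered arrays did not deviate together (correlations from -0.181 to 0.0921 over 120 pairs, median -0.00273), so the numbers were not taken as pairs. With 2 arrays per group and SEs of 0.17 to 0.84 on the log2 scale in liver, members such as Birc5 and Ube2c could differ as much as members that passed and not pass.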
